A study of Mus musculus with 24 samples.

Results

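Ribosome biogenesis factors are the proteins that build ribosomes, and 44 of their genes were followed across 4 cell populations of mouse muscle, 1 day after injury and in uninjured muscle. The genes were taken by symbol from a list of names, chosen with earlier results of these data known. All 44 were among the 52997 symbols of the count table, and all 44 were among the 16263 genes that passed a filter on low counts. C57BL/6 mice of 8 weeks of age gave the hindlimb muscle. It was collected 1 day after cardiotoxin, a venom toxin that kills muscle fibers, or without injury. From each kind of muscle, endothelial cells (CD31+), hematopoietic cells (CD45+), mesenchymal stromal cells (MSC, sorted as CD45-CD31-Sca1+PDGFRa+) and satellite cells, the stem cells of muscle (MuSC, sorted as CD45-CD31-Sca1-Vcam1+), were collected by cell sorting. The 8 groups had 3 libraries each, 24 in all, and each library came from 1000 cells. The mice carried no transgene or deletion that the labels name, and the labels do not say how many animals went into a library. P-values therefore measure the spread between these libraries.

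A ribosome is assembled in the nucleolus, where RNA polymerase I copies ribosomal DNA into a long precursor RNA. Small nucleolar ribonucleoproteins (snoRNPs) modify that RNA, the small subunit (SSU) processome folds and cuts its first part into the 40S subunit, and a separate set of factors builds the 60S subunit from the rest. Quiescent satellite cells are small and make little protein, and building ribosomes is part of the growth by which such cells enter the cell cycle. The transcription factor Myc is known to bind the E-box CACGTG and to raise many genes of this pathway.

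The E-box, which reads CACGTG on both strands, was searched in RefSeq promoter windows of 300 bases (250 before to 50 after the gene's start, GRCm38.p6). A window was found for 39 of the 44 genes, and 9 of those 39 held the motif (23.1%). The share was 11.1% of 11347 genes tested here with a window and 8.09% of all 27025 genes with a window. The 9 genes were Imp4, Ltv1, Mybbp1a, Nle1, Nop2, Pes1, Tsr1, Utp20 and Wdr43. The windows of 4 genes are shown in part, from 150 bases before to 30 after the start. These genes are named by the rule given with the processing, and their whole motif lies within that stretch. It also does in Pes1 and Wdr43, which fall outside that rule and are not shown. Capitals mark the E-box, and each sequence runs 5′ to 3′ on the strand of the gene.
Tsr1 (chr11:74897930-74898109, plus strand): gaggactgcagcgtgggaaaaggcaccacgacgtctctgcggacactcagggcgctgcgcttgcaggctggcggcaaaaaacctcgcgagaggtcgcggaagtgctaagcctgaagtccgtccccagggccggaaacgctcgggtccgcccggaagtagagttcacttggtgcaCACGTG
Nle1 (chr11:82908366-82908545, minus strand): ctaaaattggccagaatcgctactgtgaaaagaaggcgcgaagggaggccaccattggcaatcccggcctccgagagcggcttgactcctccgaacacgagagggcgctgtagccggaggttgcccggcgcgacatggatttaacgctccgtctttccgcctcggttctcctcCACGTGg
Nop2 (chr6:125131733-125131912, plus strand): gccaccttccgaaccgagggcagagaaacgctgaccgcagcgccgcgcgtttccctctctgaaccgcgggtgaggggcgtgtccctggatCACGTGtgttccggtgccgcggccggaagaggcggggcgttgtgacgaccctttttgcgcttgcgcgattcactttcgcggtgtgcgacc
Imp4 (chr1:34439679-34439858, plus strand): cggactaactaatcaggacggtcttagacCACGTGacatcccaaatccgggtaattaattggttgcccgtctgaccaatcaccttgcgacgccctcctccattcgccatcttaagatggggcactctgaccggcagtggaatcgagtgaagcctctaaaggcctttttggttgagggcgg
Counting the first base of the gene as 1, the E-box began at base 25 of Tsr1 and at base 24 of Nle1. In Nop2 and Imp4 it began upstream, at -60 and -121. A match describes the letters of the window and shows no binding, and the windows without one say nothing of Myc.

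Library totals ran from 2301202 to 7649841 counts. A count of 0 would allow a level of up to 3 counts, which is 0.392 to 1.30 CPM depending on the library. CPM here are read counts relative to library totals scaled by the trimmed mean of M-values (TMM). The defining markers of each gate were checked. The 7 satellite cell markers summed to 3676 to 4053 CPM in injured MuSC and 4082 to 4699 CPM in uninjured MuSC, and to at most 3.97 CPM in any other group. In MuSC 5 of the 7 fell after injury and 1 rose. The 7 endothelial markers summed to 8760.1 to 9601 CPM in injured CD31+ cells and 11233 to 11632 CPM in uninjured ones, and 1 of them fell. The 7 stromal markers summed to 19172 to 23261 CPM in injured MSC and 61668 to 86206 CPM in uninjured MSC, where 3 fell and 0 rose. Markers of other types were present at low and uneven levels. The 7 leukocyte markers summed to 239 CPM in replicate 1 of the injured CD31+ cells, where the other 2 replicates had 10 and 11.1 CPM, and to 29382 to 31276 CPM in injured CD45+ cells. In CD31+ cells 4 of the 7 rose after injury. The stromal markers summed to 204 CPM in injured CD45+ replicate 3, against at most 2.27 CPM in the other 2. In MuSC the same sum was 371 to 912 CPM after injury and 972 to 1069.7 CPM without it. Though the sum was lower, 3 of the 7 rose in injured MuSC (Lum, Pdgfra and Smoc2) and 0 fell, with a median log2 fold change of 2.65. The 7 muscle fiber markers summed to less after injury in every population, at 2.66 to 13.4 CPM in injured MSC and 132 to 380.1 CPM in uninjured MSC. The part of these markers' cells in the results was not tested beyond leaving out each library. CD45+ cells are a mixture of blood cell types whose makeup was not resolved. In sorted bulk samples, fewer cells of a type and less RNA per cell cannot be told apart.

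The 44 genes together took a larger share of all counts after injury in each population, and satellite cells had the largest share. In CD31+ cells the share was 0.51, 0.56 and 0.469% in injured libraries, against 0.172, 0.182 and 0.159% in uninjured libraries. In CD45+ cells it was 0.317, 0.33 and 0.349% in injured libraries, against 0.239, 0.264 and 0.281% in uninjured libraries. In MSC it was 0.889, 0.813 and 0.849% in injured libraries, against 0.149, 0.147 and 0.165% in uninjured libraries. MuSC libraries had 1.44, 1.44 and 1.31% in injured libraries against 0.507, 0.531 and 0.5% in uninjured libraries. In no population did the libraries of both conditions overlap. Injured CD31+ libraries overlapped with uninjured MuSC libraries, and injured CD45+ libraries all lay below both.

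**Figure D1:**
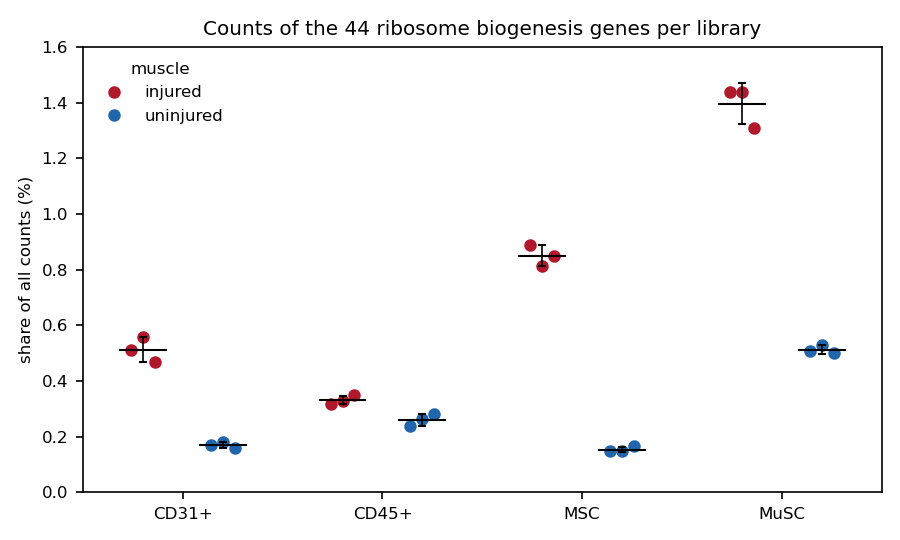
Share of all counts, in percent, taken by the 44 ribosome biogenesis genes in each of the 24 libraries, with the mean (line) and SD (bar) of 3 libraries. Injured libraries stand left of uninjured ones in each population. MuSC averaged 1.39% injured and 0.513% uninjured, and CD45+ cells had the smallest gap, 0.332% injured and 0.261% uninjured.

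On the TMM scale the summed level of the 44 genes was 8540.1 ± 429 CPM in injured MSC and 1857 ± 65.3 CPM in uninjured MSC (SD, n = 3 each), a ratio of 4.6. The ratio was 3.14 in MuSC, where the sums were 12889 ± 655 CPM injured and 4106 ± 54.2 CPM uninjured. It was 3.05 in CD31+ cells, with 5005 ± 621 CPM injured and 1640.2 ± 77.3 CPM uninjured. CD45+ cells had a ratio of 1.5, with 3990.2 ± 207 CPM injured and 2656 ± 104 CPM uninjured. The order of the ratios thus differed from the order of the levels: MuSC had the highest sums in both conditions, and MSC had the largest ratio.

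Gene by gene, injury was followed by higher levels of nearly the whole set in 3 of the 4 populations. An adjusted p below 0.05 in edgeR's quasi-likelihood test, adjusted over all 16263 genes, was the threshold for a call. In MSC all 44 genes rose and 0 fell, where 18.3% of all genes tested rose and 23.6% fell. In CD31+ cells 43 rose and 0 fell, beside 14.1% and 9.3% of all genes. In MuSC 43 rose and 0 fell, beside 21.4% and 17.5% of all genes. In CD45+ cells 31 rose, 0 fell and 13 did not pass, where 16% of all genes rose and 18.5% fell. The median log2 fold change of the 44 genes was 2.06 in MSC, 1.69 in CD31+ cells, 1.52 in MuSC and 0.74 in CD45+ cells. Medians of all genes tested were -0.22, -0.04, -0.04 and -0.12 in the same order.

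Single libraries gave nearly the same counts. Every injured library lay above every uninjured one for 44 of the genes in MSC (23% of all genes tested), 43 in CD31+ cells (19.6%), 43 in MuSC (25.5%) and 32 in CD45+ cells (20.1%). Scaling by DESeq2's size factors (RLE) in place of TMM lowered the median of all genes to -0.14 in CD31+ cells, against -0.04 under TMM, and gave 44, 43, 43 and 31 risen genes in MSC, CD31+ cells, MuSC and CD45+ cells. Of all genes called in CD31+ cells, 60.3% had risen under TMM, 48.3% under RLE, 46.4% by DESeq2 and 72.9% with no filter on low counts. The same share in MSC was 43.7% as reported, 54.7% with no filter and 54.2% without uninjured MSC replicate 1. In MuSC it was 55% as reported and 42% with a minimum count of 50. Without injured CD31+ replicate 1, the library with leukocyte transcripts, 43 of the 44 genes rose in CD31+ cells. Without injured CD45+ replicate 3, the library with stromal transcripts, 29 rose in CD45+ cells.

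The genes described one by one below were taken by a rule given with the processing, for example the largest and smallest changes in each population. Mybbp1a, Fbl, Dkc1, Utp15, Nop14, Nob1, Pes1 and Wdr12 fall outside that rule and were named after their values were seen, to complete a role or a count. Fold changes are log2 values, injured over uninjured, with an approximate standard error (SE).

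**Figure D2:**
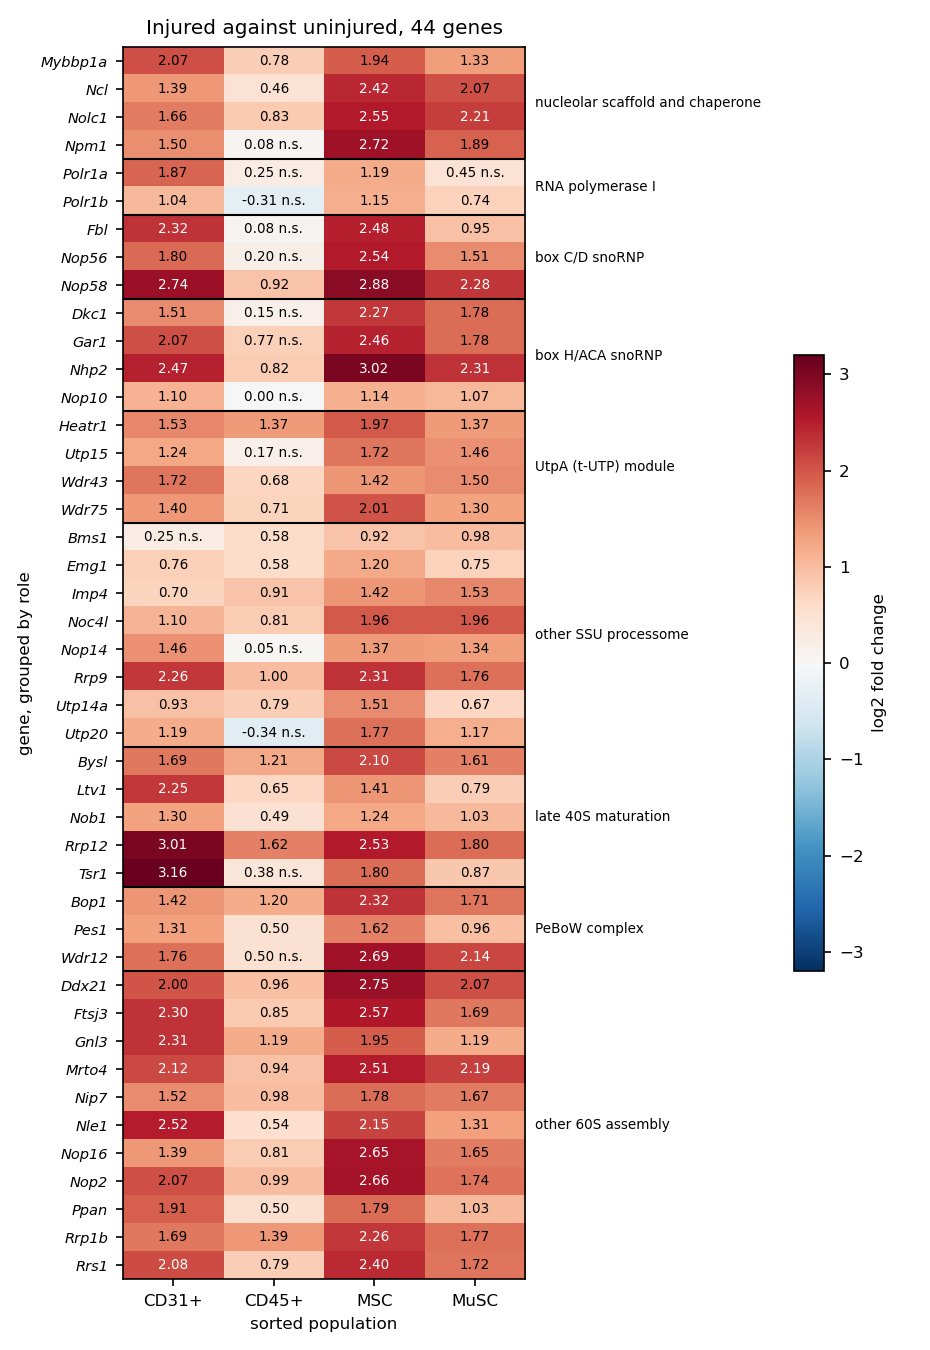
Log2 fold change, injured over uninjured, of each of the 44 genes (rows, grouped by role) in the 4 populations (columns), with n.s. where the adjusted p was 0.05 or more. The CD45+ column is the palest, with values from -0.34 to 1.62, and the MSC column the darkest, from 0.92 to 3.02.

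The 4 nucleolar scaffold and chaperone genes rose in MSC, CD31+ cells and MuSC, and 3 of them rose in CD45+ cells. Their median log2 fold change was 2.48 in MSC, 1.58 in CD31+ cells, 1.98 in MuSC and 0.62 in CD45+ cells. Npm1 (chr11:33152287-33163206, minus strand, GRCm38) encodes nucleophosmin, a chaperone of the nucleolus. It had 2229, 2255 and 2188 CPM in injured MuSC, against 609, 594 and 598 CPM in uninjured MuSC. It had 1668, 1489 and 1545 CPM in injured MSC, against 253, 232 and 226 CPM in uninjured MSC. These gaps were 1.89 ± 0.10 in MuSC (log2 fold change ± SE, adjusted p = 9.45e-13) and 2.72 ± 0.10 in MSC (adjusted p = 5.99e-15). It rose in CD31+ cells too (log2 fold change 1.5 ± 0.10 SE, adjusted p = 1.3e-10). In the CD45+ gate Npm1 had 345, 383 and 436 CPM in injured CD45+ cells, against 362, 367 and 375 CPM in uninjured CD45+ cells. There the libraries overlapped and the gene did not pass (log2 fold change 0.08 ± 0.10 SE, adjusted p = 0.59). Injured CD45+ replicate 3, the highest of them, also held the stromal transcripts, and without it the log2 fold change was -0.01.

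Ncl encodes nucleolin, an RNA-binding protein of the early pre-ribosome. It had 1842, 1755 and 1566 CPM in injured MuSC, against 406, 397 and 430.4 CPM in uninjured MuSC, and 388, 385 and 398 CPM in injured CD45+ cells, against 276, 277 and 295 CPM in uninjured CD45+ cells. All injured libraries were above all uninjured ones in both populations, with a log2 fold change of 2.07 ± 0.11 SE in MuSC (adjusted p = 7.11e-13) and 0.46 ± 0.11 SE in CD45+ cells (adjusted p = 0.00141). Nolc1, a chaperone of snoRNPs, was among the 4 largest rises in MuSC. It had 447, 431 and 413 CPM in injured MuSC, against 95.3, 95.9 and 87.2 CPM in uninjured MuSC (log2 fold change 2.21 ± 0.14 SE, adjusted p = 2.14e-11). The fourth gene of the group, Mybbp1a, rose in all 4 populations, by 0.78 to 2.07 on the log2 scale.

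RNA polymerase I was represented by its largest subunits, Polr1a and Polr1b, which together form the catalytic center. Both rose in MSC and CD31+ cells, and neither passed in CD45+ cells. Polr1a had 86.7, 89.8 and 76.1 CPM in injured MuSC, against 65.6, 59.99 and 58.5 CPM in uninjured MuSC. Though the libraries did not overlap, it was the single gene of the 44 that did not pass in MuSC (log2 fold change 0.45 ± 0.20 SE, adjusted p = 0.0746). In the MuSC comparison it passed in 3 alternative analyses, with adjusted p of 0.00794 to 0.0399. Its level was 50.3, 63.3 and 38.6 CPM in injured CD31+ cells, against 15.1, 16.7 and 9.43 CPM in uninjured CD31+ cells, and it rose there (log2 fold change 1.87 ± 0.22 SE, adjusted p = 7.58e-07). Polr1b had 11.6, 11.3 and 13.1 CPM in injured CD45+ cells, against 11.9, 17.4 and 15.7 CPM in uninjured CD45+ cells. Those libraries overlapped, and the change, among the 2 lowest of the set in CD45+ cells, did not pass (log2 fold change -0.31 ± 0.22 SE, adjusted p = 0.294), whereas in MSC Polr1b rose by 1.15 ± 0.21 SE on the log2 scale.

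Box C/D snoRNPs guide methylation of ribosomal RNA, and Nop58, Nop56 and the methyltransferase Fbl are protein parts of them. Their median log2 fold change was 2.54 in MSC, 2.32 in CD31+ cells, 1.51 in MuSC and 0.20 in CD45+ cells. Nop58 (chr1:59684971-59719044, plus strand, GRCm38) was among the 4 largest rises in 3 populations. It had 215, 278 and 184 CPM in injured CD31+ cells, against 42.9, 30.8 and 26.8 CPM in uninjured CD31+ cells (log2 fold change 2.74 ± 0.23 SE, adjusted p = 9.58e-09). In MSC it rose by 2.88 ± 0.23 SE and in MuSC by 2.28 ± 0.22 SE on the log2 scale. It had 101, 153 and 154 CPM in injured CD45+ cells, against 50.8, 102 and 62.4 CPM in uninjured CD45+ cells. Uninjured replicate 2 reached the level of injured replicate 1 there, and the gene passed (log2 fold change 0.92 ± 0.22 SE, adjusted p = 0.00213). Nop56 had 409.7, 374 and 380.1 CPM in injured MSC, against 63.7, 60.7 and 76.2 CPM in uninjured MSC (log2 fold change 2.54 ± 0.14 SE, adjusted p = 1.87e-12). Its CD45+ libraries overlapped, with 136, 135 and 158 CPM in injured CD45+ cells, against 119.8, 111 and 143 CPM in uninjured CD45+ cells, and did not pass (log2 fold change 0.20 ± 0.13 SE, adjusted p = 0.265). Fbl was like Nop56 in MSC and CD45+ cells: it rose in MSC by 2.48 ± 0.34 SE and had a log2 fold change of 0.08 ± 0.33 SE in CD45+ cells (adjusted p = 0.884). In MuSC its libraries overlapped, whereas those of Nop56 did not. Fbl had 89.3 and 92.01 CPM in injured MuSC replicates 1 and 2. Injured replicate 3 had 37.3 CPM, within the uninjured MuSC range of 30.8 to 42.4 CPM. The gene still passed there (log2 fold change 0.95 ± 0.32 SE, adjusted p = 0.02).

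Box H/ACA snoRNPs turn uridines of ribosomal RNA into pseudouridine, and their 4 core proteins are Dkc1, Nhp2, Nop10 and Gar1. All 4 genes rose in MSC, CD31+ cells and MuSC, and 1 rose in CD45+ cells. Nhp2 (chr11:51619735-51623714, plus strand, GRCm38) had the largest rise of the 44 genes in MSC and in MuSC. It had 405, 337 and 383 CPM in injured MSC, against 47.8, 49.3 and 41.5 CPM in uninjured MSC (log2 fold change 3.02 ± 0.12 SE, adjusted p = 5.99e-15). Its levels were 518, 509 and 485 CPM in injured MuSC, against 99.9, 109 and 97 CPM in uninjured MuSC (log2 fold change 2.31 ± 0.12 SE, adjusted p = 2.59e-13). The highest uninjured library was far below the lowest injured one in both. Nop10, the smallest core protein, had a smaller change, with 197, 201 and 189 CPM in injured MSC, against 89.1, 80.2 and 96.2 CPM in uninjured MSC (log2 fold change 1.14 ± 0.12 SE, adjusted p = 3.59e-08). In the CD45+ gate Nop10 had 94.7, 116 and 112 CPM in injured CD45+ cells, against 97.3, 120.0 and 105 CPM in uninjured CD45+ cells. Those libraries overlapped fully, and the log2 fold change of 0.00 ± 0.12 SE (adjusted p = 1) turned its sign with the scaling, the tool or the library left out. Nhp2 did rise in CD45+ cells (log2 fold change 0.82 ± 0.11 SE, adjusted p = 5.31e-06), the one H/ACA gene of 4 to do so. Gar1 had few counts, 10.6, 13.5 and 9.58 CPM in injured CD45+ cells, against 5.46, 8.10 and 6.30 CPM in uninjured CD45+ cells. All 3 injured libraries were above the uninjured ones, and the gene did not pass (log2 fold change 0.77 ± 0.43 SE, adjusted p = 0.182). Dkc1, the pseudouridine synthase, had a log2 fold change of 0.15 ± 0.17 SE in CD45+ cells (adjusted p = 0.52) and rose by 2.27 ± 0.17 SE in MSC.

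The UtpA module binds the precursor RNA first, while it is still being made. Its genes rose in all cases but one, Utp15 in CD45+ cells, which did not pass. Heatr1 encodes the largest protein of the module. It had 43.5, 63.9 and 68.4 CPM in injured CD45+ cells, against 24.7, 24.01 and 19.2 CPM in uninjured CD45+ cells (log2 fold change 1.37 ± 0.28 SE, adjusted p = 0.000442). Its levels were 26.98, 34.8 and 28.6 CPM in injured MSC, against 5.87, 9.41 and 8 CPM in uninjured MSC (log2 fold change 1.97 ± 0.30 SE, adjusted p = 9.4e-06). The 2 highest Heatr1 levels of the 24 libraries were those of injured CD45+ replicates 3 and 2. Wdr75, another repeat protein of the module, had 156, 139 and 137 CPM in injured MSC, against 30, 41.4 and 36.4 CPM in uninjured MSC (log2 fold change 2.01 ± 0.19 SE, adjusted p = 1.01e-08), and no libraries overlapped.

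Among the 8 other factors of the SSU processome, 8 rose in MSC and in MuSC, 7 in CD31+ cells and 6 in CD45+ cells. Bms1, a GTPase of the processome, was the smallest change in CD31+ cells and in MSC. It had 21.8, 25.4 and 22.9 CPM in injured CD31+ cells, against 24.7, 16.7 and 17.4 CPM in uninjured CD31+ cells. The libraries overlapped and it was the single gene there that did not pass (log2 fold change 0.25 ± 0.21 SE, adjusted p = 0.45). Its levels were 26.7, 23.2 and 33.1 CPM in injured MSC, against 15.2, 13.7 and 14.9 CPM in uninjured MSC, a rise (log2 fold change 0.92 ± 0.21 SE, adjusted p = 0.00125). Utp20 is a large protein of the processome. It had 18.2, 19.1 and 22.7 CPM in injured CD45+ cells, against 22.1, 25.5 and 28.6 CPM in uninjured CD45+ cells. That was the lowest log2 fold change of the set in those cells, with overlapping libraries, and it did not pass (log2 fold change -0.34 ± 0.18 SE, adjusted p = 0.141). With 45.4, 51.7 and 40.9 CPM in injured MuSC, against 21.3, 17.3 and 22.4 CPM in uninjured MuSC, it rose in MuSC (log2 fold change 1.17 ± 0.17 SE, adjusted p = 6.28e-06).

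Imp4, a partner of the U3 snoRNA, had 125, 126 and 101 CPM in injured CD31+ cells, against 67.4, 75.98 and 73.1 CPM in uninjured CD31+ cells. That was among the 2 smallest changes in CD31+ cells, yet every injured library was above every uninjured one (log2 fold change 0.70 ± 0.15 SE, adjusted p = 0.00116). Its rise in MuSC was larger, with 192, 216 and 185 CPM in injured MuSC, against 60.4, 62.7 and 82.3 CPM in uninjured MuSC (log2 fold change 1.53 ± 0.15 SE, adjusted p = 2.26e-08). Emg1, a methyltransferase of the small subunit RNA, rose in each population, from 0.58 ± 0.11 SE in CD45+ cells to 1.20 ± 0.11 SE in MSC on the log2 scale. Utp14a had 57.3, 62.3 and 54.4 CPM in injured MuSC, against 33.9, 41.01 and 34.8 CPM in uninjured MuSC, the smallest rise in MuSC that passed (log2 fold change 0.67 ± 0.16 SE, adjusted p = 0.00143). Nop14, another processome protein, had a log2 fold change of 0.05 ± 0.19 SE in CD45+ cells (adjusted p = 0.894).

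Factors of late 40S maturation included the largest rises of CD31+ cells. Tsr1, a GTPase-like protein that holds the immature 40S subunit, had 42.9, 48.9 and 35.4 CPM in injured CD31+ cells, against 4.68, 5.08 and 4.42 CPM in uninjured CD31+ cells. The lowest injured library was far above the highest uninjured one (log2 fold change 3.16 ± 0.22 SE, adjusted p = 1.65e-10). It had 70.5, 54.8 and 52.96 CPM in injured MuSC, against 34.7, 28.5 and 33.8 CPM in uninjured MuSC (log2 fold change 0.87 ± 0.18 SE, adjusted p = 0.000363). In the stromal gate the levels were 60.7, 58.7 and 55 CPM in injured MSC, against 16.1, 18.4 and 15.8 CPM in uninjured MSC (log2 fold change 1.80 ± 0.18 SE, adjusted p = 3.76e-08). Uninjured CD31+ libraries were the lowest of the 24, and injured CD31+ libraries were above all CD45+ libraries. The hematopoietic gate had 17.4, 21.8 and 16.1 CPM in injured CD45+ cells, against 13.5, 17.6 and 11.4 CPM in uninjured CD45+ cells, which overlapped and did not pass (log2 fold change 0.38 ± 0.20 SE, adjusted p = 0.149).

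Exons of Tsr1 (chr11:74898071-74909342, plus strand, GRCm38) overlap those of Srr, a gene on the opposite strand, over 32.3% of their length, and these libraries do not mark the strand, so reads of the shared stretch cannot be assigned. Srr had a log2 fold change of -0.22 ± 0.29 SE in CD31+ cells (adjusted p = 0.62), -1.44 ± 0.29 SE in MSC (adjusted p = 0.000268), -0.86 ± 0.33 SE in CD45+ cells (adjusted p = 0.0495) and -0.81 ± 0.29 SE in MuSC (adjusted p = 0.0277). Its estimates were thus negative in all 4 populations, where those of Tsr1 were positive.

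Rrp12 (chr19:41862851-41896173, minus strand, GRCm38) encodes a protein that in yeast helps export pre-ribosomes. It had 21.2, 30.3 and 30.8 CPM in injured CD31+ cells, against 4.68, 3.95 and 1.18 CPM in uninjured CD31+ cells (log2 fold change 3.01 ± 0.39 SE, adjusted p = 2.58e-06). Those uninjured levels rest on few counts, 22, 14 and 4. Rrp12 also had the largest rise in CD45+ cells, with 26.8, 23.5 and 31.1 CPM in injured CD45+ cells, against 7.36, 6.94 and 12.3 CPM in uninjured CD45+ cells (log2 fold change 1.62 ± 0.35 SE, adjusted p = 0.000864). Injured libraries of the 2 populations reached similar levels, and uninjured CD31+ replicate 3 was the lowest of all. Bysl had 69.7, 74.2 and 63.99 CPM in injured CD45+ cells, against 25.4, 37.3 and 27.5 CPM in uninjured CD45+ cells (log2 fold change 1.21 ± 0.19 SE, adjusted p = 2.54e-05) and was among the 4 largest rises there. Ltv1, an assembly factor of the 40S head, had 116, 141 and 99.8 CPM in injured CD31+ cells, against 28.9, 16.9 and 28.6 CPM in uninjured CD31+ cells, without overlap (log2 fold change 2.25 ± 0.17 SE, adjusted p = 1.21e-09). In MuSC its change was smaller (log2 fold change 0.79 ± 0.16 SE, adjusted p = 0.000343). Nob1, which makes the last cut of the small subunit RNA, rose in all 4 populations, by 0.49 to 1.30 on the log2 scale.

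The PeBoW complex of Pes1, Bop1 and Wdr12 is needed to make the large subunit RNA. Bop1 had 443, 443 and 395 CPM in injured MuSC, against 144, 146 and 103 CPM in uninjured MuSC (log2 fold change 1.71 ± 0.16 SE, adjusted p = 1.43e-08). In the CD45+ gate it had 181, 228 and 184 CPM in injured CD45+ cells, against 76.2, 88.2 and 94.5 CPM in uninjured CD45+ cells (log2 fold change 1.20 ± 0.17 SE, adjusted p = 5.6e-06). All injured libraries were above all uninjured ones in both. The other 2 subunits rose in MSC, CD31+ cells and MuSC. In CD45+ cells Pes1 rose by 0.50 ± 0.14 SE, and Wdr12 had a log2 fold change of 0.50 ± 0.22 SE (adjusted p = 0.0797).

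The 11 other 60S assembly factors rose without exception, 11 of 11 in each population. Their median log2 fold change was 2.40 in MSC, 2.07 in CD31+ cells, 1.69 in MuSC and 0.94 in CD45+ cells. Mrto4, which in yeast holds the place of a stalk protein on the immature subunit, had 244, 249 and 203 CPM in injured MuSC, against 47.05, 54.2 and 51.6 CPM in uninjured MuSC (log2 fold change 2.19 ± 0.16 SE, adjusted p = 2.42e-10). Ddx21, an RNA helicase, had 133, 115 and 121 CPM in injured MSC, against 16.1, 18.6 and 20.2 CPM in uninjured MSC (log2 fold change 2.75 ± 0.27 SE, adjusted p = 3.4e-08). In CD31+ cells its uninjured libraries were uneven, at 37.6, 10.2 and 14.4 CPM, and still below all injured ones at 82.8, 95.1 and 78.4 CPM. Nop2, a methyltransferase of the large subunit RNA, had 196, 186 and 181 CPM in injured MSC, against 23.96, 28.7 and 36.9 CPM in uninjured MSC (log2 fold change 2.66 ± 0.16 SE, adjusted p = 1.16e-11), again without overlap.

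Nle1, which helps the ATPase Mdn1 remodel the 60S particle, was among the 4 largest rises of CD31+ cells, with 29.5, 31.6 and 24.3 CPM in injured CD31+ cells, against 5.95, 3.95 and 4.72 CPM in uninjured CD31+ cells (log2 fold change 2.52 ± 0.21 SE, adjusted p = 3.42e-09). In CD45+ cells it passed narrowly, with 18.7, 21.1 and 21.5 CPM in injured CD45+ cells, against 10.4, 15.04 and 16.9 CPM in uninjured CD45+ cells (log2 fold change 0.54 ± 0.19 SE, adjusted p = 0.0326). That call was lost without a filter on low counts, with the CD45+ libraries fitted alone and without uninjured replicate 1 or injured replicate 2 or 3 (adjusted p = 0.0784 to 0.192). Rrp1b was among the 4 largest rises there, with 45.7, 36.5 and 32.9 CPM in injured CD45+ cells, against 14.5, 18.5 and 10.9 CPM in uninjured CD45+ cells (log2 fold change 1.39 ± 0.29 SE, adjusted p = 0.000712). Bms1 also passed narrowly in CD45+ cells, with 27.3, 27.2 and 32.7 CPM in injured CD45+ cells, against 15.2, 20.2 and 23.2 CPM in uninjured CD45+ cells (log2 fold change 0.58 ± 0.22 SE, adjusted p = 0.0412), and its call was lost in the same 2 analyses and without each CD45+ library other than uninjured replicate 3 (adjusted p = 0.0558 to 0.191). Wdr75, with 41.4, 43.9 and 34.6 CPM in injured CD45+ cells, against 32.99, 15.9 and 23.8 CPM in uninjured CD45+ cells (log2 fold change 0.71 ± 0.20 SE, adjusted p = 0.00771), lost its call without uninjured replicate 2 (adjusted p = 0.062).

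The 9 genes not yet described, 6 of them 60S factors, rose in all 4 populations, and they too were named after their values were seen. Their log2 fold changes ran from 1.42 to 2.65 in MSC, 1.10 to 2.31 in CD31+ cells, 1.03 to 1.96 in MuSC and 0.50 to 1.19 in CD45+ cells. Nop16, a 60S factor, had 193, 196 and 195 CPM in injured MSC, against 33.5, 34.1 and 25.3 CPM in uninjured MSC (log2 fold change 2.65 ± 0.14 SE, adjusted p = 1.17e-12). Ppan, another of the 60S factors, had 266, 253 and 258 CPM in injured MuSC, against 133, 128 and 118 CPM in uninjured MuSC (log2 fold change 1.03 ± 0.15 SE, adjusted p = 5.62e-06). Both were clear of overlap. Gnl3, which encodes nucleostemin, a GTPase of stem and dividing cells, had 88.5, 105 and 82.7 CPM in injured CD31+ cells, against 16.6, 15.8 and 23.3 CPM in uninjured CD31+ cells (log2 fold change 2.31 ± 0.19 SE, adjusted p = 3.12e-09). Rrp9, a protein of the U3 snoRNP, had 75.04, 69.6 and 70.5 CPM in injured CD45+ cells, against 32.5, 32.97 and 42.4 CPM in uninjured CD45+ cells (log2 fold change 1.00 ± 0.14 SE, adjusted p = 6.45e-06). Wdr43 of the UtpA module had 62.4, 64.7 and 60.7 CPM in injured CD45+ cells, against 40.8, 33.3 and 42.9 CPM in uninjured CD45+ cells (log2 fold change 0.68 ± 0.16 SE, adjusted p = 0.00215). For all 9 genes, every injured library was above every uninjured one in each of the 4 populations.

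**Figure D3:**
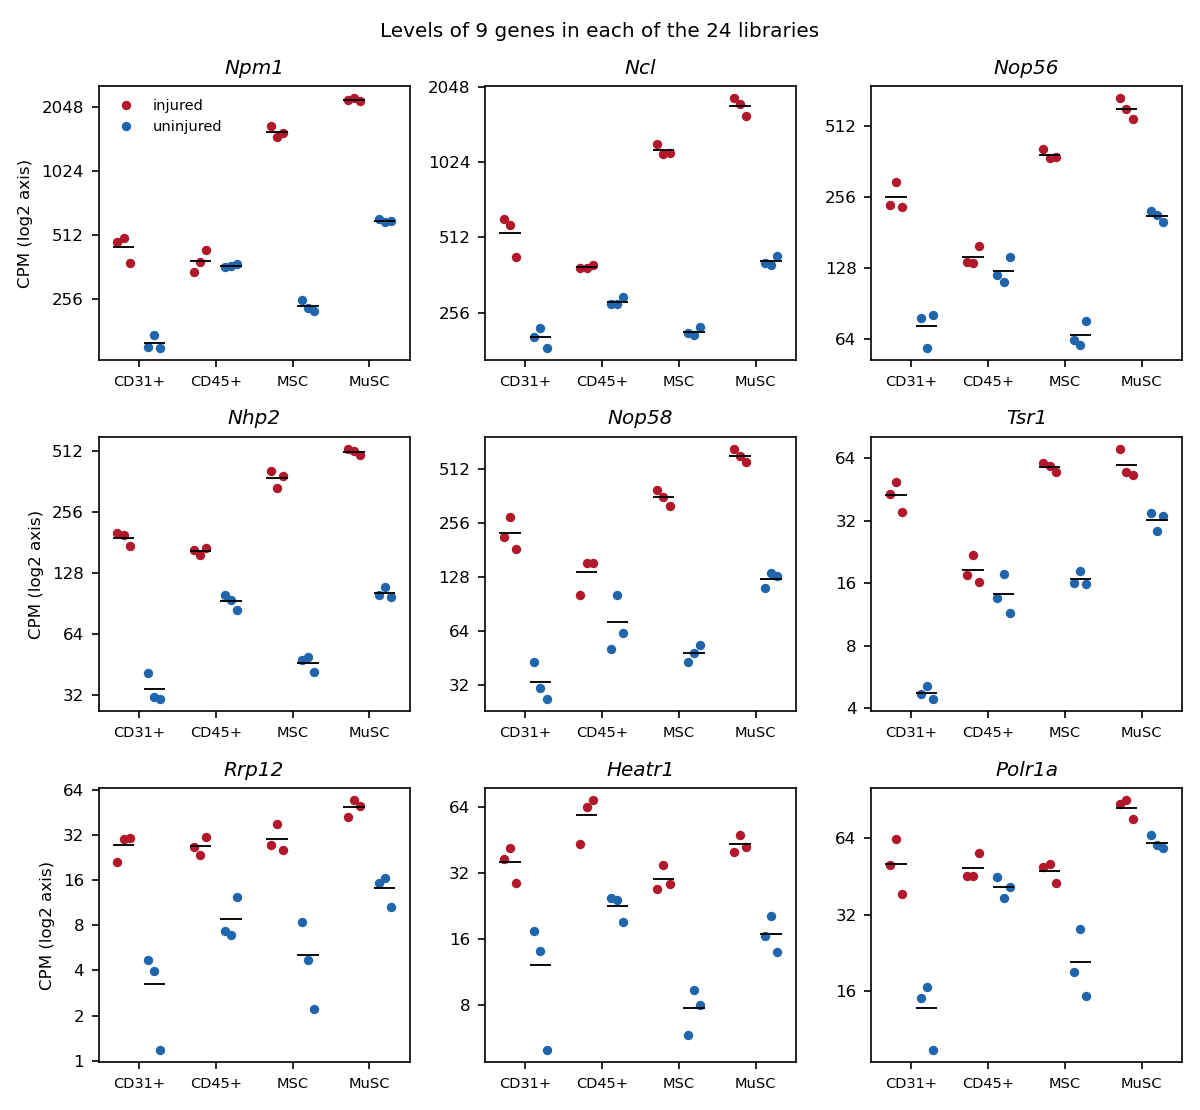
Level of 9 of the genes in each of the 24 libraries, in CPM on a log2 axis that differs between panels, with a line at the mean of 3 libraries. Injured libraries stand left of uninjured ones. Npm1, Nop56 and Polr1a show nearly level pairs in CD45+ cells, whereas Heatr1 and Rrp12 are higher after injury in every population.

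By role, 11 of 11 other 60S factors, 6 of 8 other SSU processome genes and 4 of 5 late 40S genes rose in CD45+ cells. So did 3 of 4 UtpA, 3 of 4 scaffold and chaperone and 2 of 3 PeBoW genes. Fewer rose of the box C/D genes (1 of 3), H/ACA genes (1 of 4) and polymerase genes (0 of 2). Of all genes 16% rose there, and a difference between roles was not tested. In the lists of other pathway genes described below, 41.5% of 60S factors and 45.9% of SSU and 40S factors rose in these cells. The count of 11 includes Nle1, whose call was lost in 5 of the other analyses. Calls of 60S genes outside the naming rule were not followed there. A p that misses the threshold does not show that a gene did not change. The 13 that did not pass were Npm1, Nop56, Nop10, Gar1, Polr1a, Polr1b, Tsr1 and Utp20, as well as Fbl, Dkc1, Nop14, Utp15 and Wdr12. Their log2 fold changes ran from -0.34 for Utp20 to 0.77 for Gar1. In the other 3 populations these 13 genes rose, apart from Polr1a in MuSC.

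Whether the response differed between populations was tested on the difference itself. An F test over the 4 injury effects was passed by 38 of the 44 genes, where 35.9% of all genes passed. The smallest adjusted p belonged to Npm1 (7.28e-11), Nhp2 (3.72e-09), Ncl (5.27e-09), Nop56 (2.28e-08) and Tsr1 (4.68e-07). The 6 genes that did not pass were Bysl (0.0551), Rrp12 (0.0986), Gar1 (0.131), Bms1 (0.156), Rrp1b (0.335) and Heatr1 (0.545). Heatr1 had log2 fold changes between 1.37 and 1.97, with SE of 0.28 to 0.30.

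CD45+ cells were set against the other 3 populations. Their injury effect was smaller than the mean effect of the other 3 populations for 36 of the 44 genes and larger for 0, where 16.1% of all genes were smaller and 9.59% larger. The median difference was -1.11 on the log2 scale, against -0.14 for all genes. Npm1 had the largest difference of the 44 (-1.96 ± 0.12 SE, adjusted p = 4.38e-11). Nhp2, which rose in all 4 populations, still rose less in CD45+ cells (-1.78 ± 0.13 SE, adjusted p = 1.38e-09). The box C/D genes were close to each other, with Nop56 at -1.75 ± 0.15 SE, adjusted p = 1.43e-08, and Nop58 at -1.71 ± 0.25 SE, adjusted p = 2.36e-05. Of those that passed, Bysl (-0.59 ± 0.21 SE, adjusted p = 0.0454) and Bop1 (-0.62 ± 0.19 SE, adjusted p = 0.0171) had the smallest differences.

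Satellite cells and stromal cells were compared next. The injury effect was smaller in MuSC than in MSC for 13 genes and larger for 0, where 2.11% of all genes were smaller and 5.62% larger. The median difference was -0.61, against 0.13 for all genes. Nop56 had -1.03 ± 0.19 SE, adjusted p = 0.000812, and Npm1 -0.83 ± 0.14 SE, adjusted p = 0.000362. Fbl had the largest difference of the 44 (-1.53 ± 0.46 SE, adjusted p = 0.0426), with overlapping libraries in MuSC. Of the 13 genes, 6 belonged to the 11 other 60S factors, among them Nop2 (-0.91 ± 0.22 SE, adjusted p = 0.00987) and Nle1 (-0.84 ± 0.26 SE, adjusted p = 0.0457). The count was unsteady: it was 29 with only the libraries of both populations in the fit, 26 with a stricter filter on low counts, 28 without uninjured CD31+ replicate 1 and 24 without uninjured MSC replicate 1. It was 6 without injured MSC replicate 1, 8 or 7 without uninjured MuSC replicate 1 or 2, and 6 without injured MuSC replicate 3. The scale moved for all genes too. Over these and the other settings the median difference ran from -0.91 to -0.55 for the 44 genes and from -0.17 to 0.16 for all genes. The shares of all genes with a smaller or larger effect were counted only for the fit as reported.

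Against CD31+ cells, the effect in MuSC was larger for 2 genes (7.32% of all genes) and smaller for 7 (5.02%), with a median difference of -0.16 against -0.01 for all genes. Larger were Ncl (0.67 ± 0.15 SE, adjusted p = 0.00332) and Imp4 (0.83 ± 0.21 SE, adjusted p = 0.0103). The count of larger effects was 4 without injured CD31+ replicate 2 and 5 by DESeq2. Smaller were Tsr1 (-2.28 ± 0.28 SE, adjusted p = 6.92e-06), Ltv1 (-1.47 ± 0.23 SE, adjusted p = 0.000134) and Polr1a (-1.42 ± 0.30 SE, adjusted p = 0.00202), with 4 more, and 11 in all when the fit held only the libraries of both populations. MSC had a larger effect than CD31+ cells for 10 genes (4.85% of all genes) and a smaller one for 2 (7.72%), with a median difference of 0.41 against -0.16. Among the larger, Npm1 had the smallest adjusted p (1.23 ± 0.14 SE, adjusted p = 2.57e-06) and Nop16 a larger difference (1.26 ± 0.19 SE, adjusted p = 8.2e-05). Tsr1 (-1.36 ± 0.28 SE, adjusted p = 0.00214) and Ltv1 (-0.84 ± 0.24 SE, adjusted p = 0.019) were the smaller. The 10 became 6 without injured CD31+ replicate 3 or injured MSC replicate 1. The 2 became 1 without uninjured or injured CD31+ replicate 2, or without uninjured MSC replicate 1 or 3.

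The injury effects were ordered most alike in MSC and MuSC. Across the 44 genes, which are not independent replicates, the injury effects in MSC and MuSC had Pearson's r of 0.80 and Spearman's rho of 0.79. CD31+ cells had r of 0.56 with MSC and 0.26 with MuSC. CD45+ cells had r of 0.40 with MuSC, 0.35 with MSC and 0.30 with CD31+ cells. These pairs share no library, though they share the model's estimate of the spread. The same correlations over all genes tested were not taken. Whether the likeness of MSC and MuSC is particular to the 44 genes is therefore not known. Nhp2, Nop58, Nolc1 and Mrto4, the 4 largest rises of MuSC, had log2 fold changes of 3.02, 2.88, 2.55 and 2.51 in MSC.

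In uninjured muscle the populations already differed in these genes, and most were highest in satellite cells. Each uninjured population was tested against the mean of the other 3. In MuSC 40 genes were higher and 0 lower, where 24.9% of all genes were higher and 24.1% lower. The median difference was 1.08 on the log2 scale, against -0.06 for all genes. In CD31+ cells 36 were lower and 0 higher (all genes 19.3% and 25.3%), with a median of -0.62. In MSC the counts were 29 lower and 0 higher (18% and 26.3%), with a median of -0.50. In CD45+ cells 15 were higher, 1 lower and 28 did not pass (29.4% higher and 25.8% lower among all genes), with a median of 0.21.

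The 1 gene lower in uninjured CD45+ cells was Wdr75 (-0.63 ± 0.17 SE, adjusted p = 0.00299). The count of 1 lower gene became 2 without uninjured CD31+ replicate 2 or 3, uninjured CD45+ replicate 1 or 3, injured CD45+ replicate 1 or uninjured MSC replicate 3. The count of 0 higher in MSC became 1 without uninjured CD45+ replicate 2. In an F test over the 4 uninjured populations 42 genes passed (78.7% of all genes), and over the 4 injured ones 44 (81.2%). The 2 genes that did not differ at the threshold in uninjured muscle were Bms1 and Gar1.

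**Figure D4:**
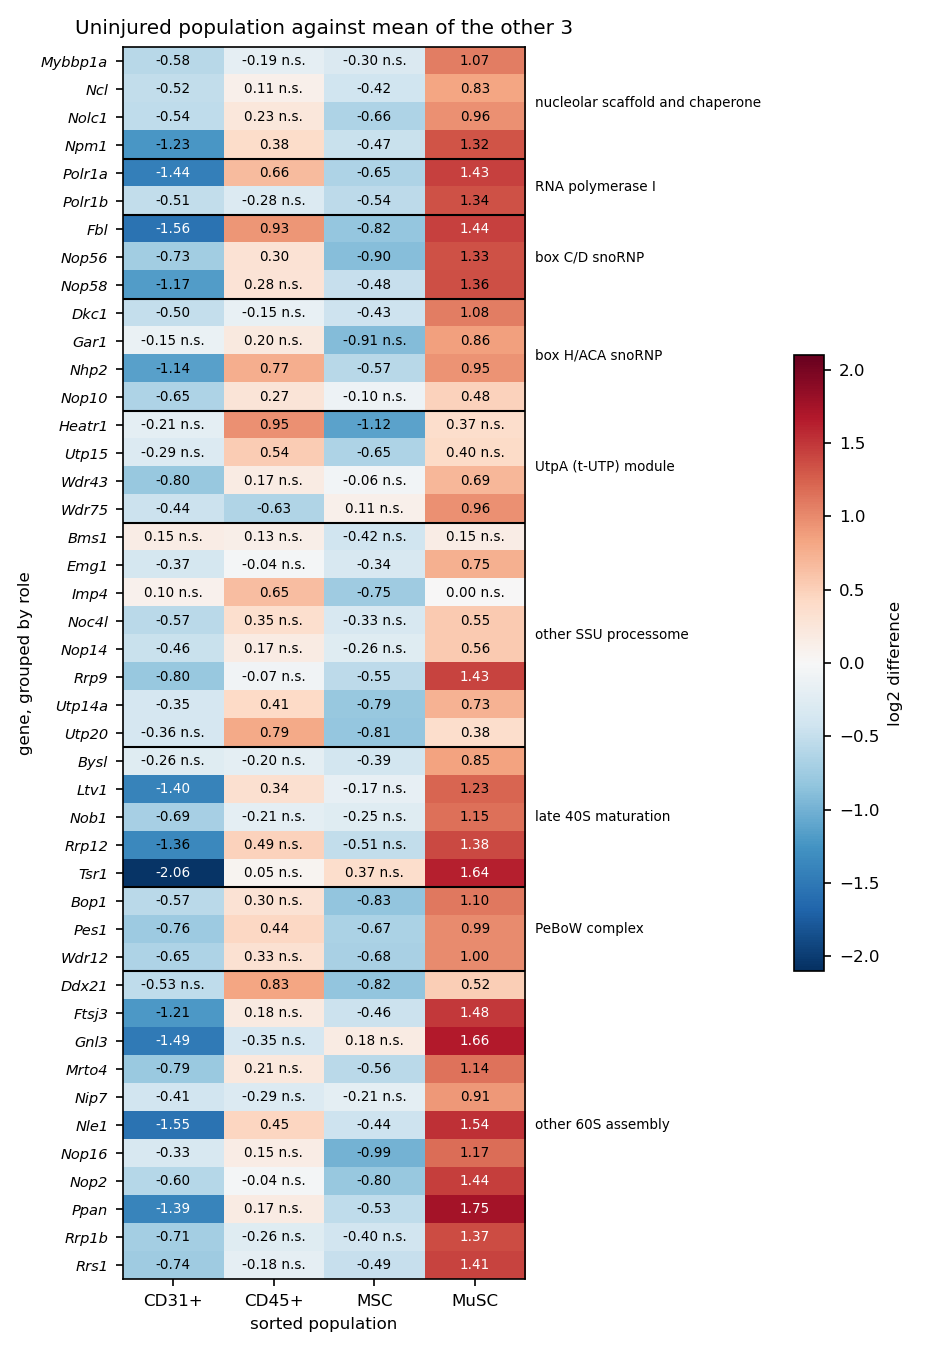
Log2 difference between each uninjured population and the mean of the other 3, for the 44 genes grouped by role, with n.s. where the adjusted p was 0.05 or more. The MuSC column holds the highest values, up to 1.75 for Ppan, with Imp4 at 0.00, and the CD31+ column is below 0 for all but Bms1 and Imp4.

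Tsr1 had the largest ratio of highest to lowest group mean in uninjured muscle. It averaged 32.3 ± 3.35 CPM in MuSC, 16.7 ± 1.42 CPM in MSC, 14.2 ± 3.15 CPM in CD45+ cells and 4.73 ± 0.335 CPM in CD31+ cells (SD, n = 3 each), where MSC and CD45+ libraries overlapped. Against the mean of the others it was 1.64 ± 0.15 SE, adjusted p = 2.03e-09 in MuSC, and -2.06 ± 0.20 SE, adjusted p = 4.28e-09 in CD31+ cells. Nle1 was likewise highest in MuSC and lowest in CD31+ cells (1.54 ± 0.15 SE, adjusted p = 6.64e-09 in MuSC, and -1.55 ± 0.19 SE, adjusted p = 2.51e-07 in CD31+ cells). Npm1 was at 609, 594 and 598 CPM in uninjured MuSC, above every other uninjured library. Next came CD45+ cells at 362, 367 and 375 CPM, then MSC at 253, 232 and 226 CPM and last CD31+ cells at 153, 174 and 151 CPM, with no overlap between neighbours. Imp4 was ordered otherwise: uninjured MuSC had 60.4, 62.7 and 82.3 CPM of Imp4, below CD45+ cells at 93.3, 98.1 and 96.5 CPM. Heatr1 was highest in uninjured CD45+ cells (0.95 ± 0.23 SE, adjusted p = 0.00118) and lowest in MSC (-1.12 ± 0.26 SE, adjusted p = 0.00113).

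Levels of different genes were compared per kilobase, by the length of the longest coding transcript and, chosen after seeing the data, by the length of all exons joined. By the first length Npm1 ranked highest of the 44 in 7 of the 8 groups, with 1362 ± 20.7 CPM per kilobase in injured MuSC and 367 ± 4.65 in uninjured MuSC (SD, n = 3 each). By the second it ranked highest in the same 7 groups, with 835 ± 12.7 in injured MuSC and 225 ± 2.85 in uninjured MuSC. In injured CD31+ and CD45+ cells Npm1 and Nhp2 were within their spread of each other by the second length. Nhp2 was next to Npm1 in injured MuSC by both, at 484 ± 16.4 by coding transcript and 440.0 ± 14.96 by all exons. Both lengths come from the annotation, at 8.2 and 10.188 kilobases for Ncl, and the transcript forms these cells used were not measured. The place of Nhp2 above Ncl rests on those lengths, and agreement between them does not settle a rank. Lower ranks depended on the length taken. In injured MuSC Emg1 had 319 ± 23.01 CPM per kilobase by the first length, above Ncl at 209.8 ± 17.2, but 71.3 ± 5.14 by the second, below Ncl at 169 ± 13.9. Utp20 was the lowest in each injured group by both lengths, at 5.21 ± 0.616 and 4.51 ± 0.533 CPM per kilobase in injured MuSC.

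Other genes of the pathway, in 5 lists that share no gene with the 44, also rose more often than they fell, with lower medians. The 44 genes and the lists were all chosen with earlier results of these data known, so the gap between their medians is a description only. The shares of the lists can be read against the shares of all genes given above. Of 53 other 60S assembly factors, 47 in MSC, 45 in MuSC, 35 in CD31+ cells and 22 in CD45+ cells rose, with medians of 1.15, 1.10, 0.89 and 0.35 in that order. Eif6, which keeps the immature 60S subunit from joining the 40S subunit, had 491 ± 54.3 CPM in injured MuSC against 120.2 ± 6.83 CPM in uninjured MuSC (2.03 ± 0.12 SE on the log2 scale). Ebna1bp2 rose by 2.00 ± 0.15 SE in MSC. A single gene of the list fell in each population, Nop53 in all 4, named after its values were seen. It had 310.0 ± 27.8 CPM in injured MuSC against 542 ± 60.3 CPM in uninjured MuSC (-0.81 ± 0.11 SE on the log2 scale, adjusted p = 1.59e-06), and in CD45+ cells it fell by 0.56 on that scale.

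Of 37 other SSU processome and 40S factors tested, 33 in MSC, 32 in MuSC, 30 in CD31+ cells and 17 in CD45+ cells rose, with medians of 1.20, 1.02, 0.95 and 0.42. Pno1, a partner of Nob1, had 193 ± 11.5 CPM in injured MuSC against 34.9 ± 2.98 CPM in uninjured MuSC, and Lyar 189.9 ± 12.1 CPM in injured MuSC against 31.1 ± 6.46 CPM in uninjured MuSC. Wdr46, a processome protein, rose by 2.28 ± 0.16 SE in MSC and by 0.40 ± 0.15 SE in CD45+ cells. The 1 gene of the list that fell did so in CD45+ cells: Imp3, named after its values were seen, had 40.8 ± 2.36 CPM in injured CD45+ cells against 60.1 ± 5.11 CPM in uninjured CD45+ cells (adjusted p = 0.00298). Of 14 other genes of the RNA polymerase I machinery, 10 in MSC, 11 in MuSC, 7 in CD31+ cells and 3 in CD45+ cells rose and 0 fell, with medians of 0.73, 0.87, 0.47 and 0.08. Tcof1, the gene of treacle, rose by 2.1 ± 0.17 SE in MSC. Cd3eap, a polymerase subunit, rose by 2.69 ± 0.23 SE in CD31+ cells.

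Of 11 snoRNP assembly factors, 8 in MSC, 8 in MuSC, 7 in CD31+ cells and 4 in CD45+ cells rose and 0 fell, with medians of 1.22, 1.34, 0.74 and 0.41. Ruvbl2, an ATPase that loads snoRNP proteins, had 556 ± 26.02 CPM in injured MuSC against 113 ± 15.9 CPM in uninjured MuSC. Of 14 genes of the RNA exosome, which trims precursor RNA, 12 in MSC, 13 in MuSC, 7 in CD31+ cells and 3 in CD45+ cells rose and 0 fell, with medians of 1.15, 1.20, 0.44 and 0.18. Exosc8 rose by 1.77 ± 0.19 SE in MuSC and did not pass in CD45+ cells, with 53.9 ± 13.7 CPM in injured CD45+ cells against 52.6 ± 3.05 CPM in uninjured CD45+ cells (adjusted p = 0.925). In all 5 lists CD45+ cells had the fewest risen genes.

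**Figure D5:**
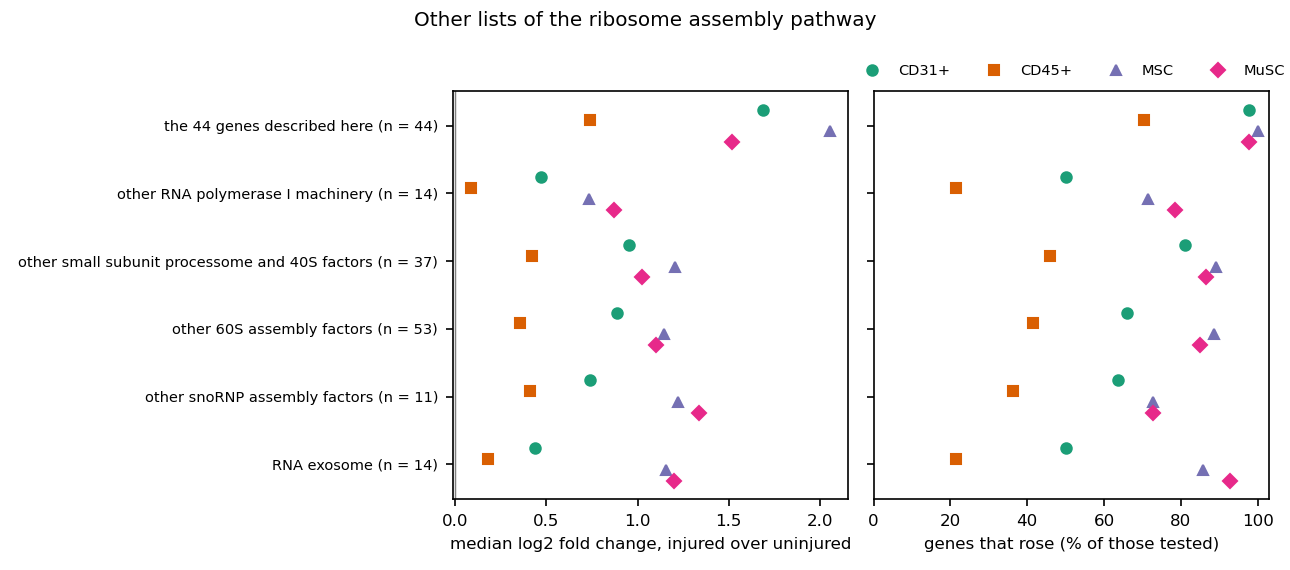
Median log2 fold change (left) and percent of genes that rose (right) after injury, in the 4 populations, for the 44 genes and for 5 lists of other genes of the pathway, with the number tested in each. CD45+ cells (squares) are lowest in every row of both panels, and the 44 genes are above each other list in each population.

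Counts in the Myc network are small and are read beside all genes. Of its 12 genes, MuSC had 2 that rose and 5 that fell, MSC 3 and 4, CD31+ cells 1 and 3, and CD45+ cells 4 and 2. As shares that rose and fell these were 16.7% and 41.7% in MuSC, where 21.4% and 17.5% of all genes did. They were 25% and 33.3% in MSC (all genes 18.3% and 23.6%), 8.33% and 25% in CD31+ cells (all genes 14.1% and 9.3%) and 33.3% and 16.7% in CD45+ cells (all genes 16% and 18.5%). Myc itself rose in all 4, with its smallest log2 fold change in CD45+ cells. It had 488 ± 48.9 CPM in injured MuSC against 190.2 ± 39.9 CPM in uninjured MuSC (1.36 ± 0.14 SE on the log2 scale), and 90.4 ± 5.79 CPM in injured CD45+ cells against 67.5 ± 6.21 CPM in uninjured CD45+ cells (0.42 ± 0.14 SE, adjusted p = 0.0235). In MSC it rose by 1.93 ± 0.14 SE. Mxd4, a repressor that competes with Myc for its partner Max, fell in all 4 populations. It had 33.2 ± 7.66 CPM in injured MuSC against 102 ± 16.99 CPM in uninjured MuSC, and 19.7 ± 2.90 CPM in injured CD45+ cells against 91.6 ± 8.10 CPM in uninjured CD45+ cells. Mycn, a relative of Myc, fell in MuSC, with 10.4 ± 3.38 CPM in injured MuSC against 53.5 ± 22.1 CPM in uninjured MuSC. Mlx, a partner of related factors, rose in CD45+ cells by 1.33 ± 0.18 SE. Whether these levels bear on the 44 genes was not tested.

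Gene copies and overlapping exons were looked up for all 44 genes. Reads that match a processed pseudogene could be shared: 7 genes had at least 1 copy with 95% identity over 200 bases or more, and the counts given to such copies came to at most 0.905% of the gene's own, for Npm1. Besides Tsr1, exons on the opposite strand covered 11.5% of Utp14a, 9.37% of Bysl (by Ccnd3) and 7.21% of Emg1 (by Lpcat3), and less in 16 more. Other overlaps were mainly with snoRNA genes on the same strand. Overlaps of either strand covered 8.12% of Nop56, 4.12% of Ppan, 4.1% of Gnl3, 2.12% of Ncl and 0.781% of Nop58. The part of such reads in these genes was not tested. Ccnd3 fell in MuSC by 0.68 on the log2 scale where Bysl rose by 1.61. In the other populations the estimates of Ccnd3 were positive, like those of Bysl, and did not pass. They were 0.31 in CD31+ cells (adjusted p = 0.171), 0.23 in CD45+ cells (0.286) and 0.40 in MSC (0.0501). Ccnd3 had a higher level than Bysl in every library, and the part of overlapping reads in Bysl was not tested. Lpcat3 rose in MSC by 1.11 where Emg1 rose by 1.20, and the part of overlapping reads in Emg1 was not tested.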

How the data were processed

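Bulk RNA-seq was made from 24 libraries of 1000 sorted cells each, primed with oligo(dT), amplified by PCR, fragmented by transposase and read for 25 bases from both ends, per the labels' protocols, which name no molecular identifiers and no strand marking. The deposited data are 1 table of raw counts, with a row for each gene symbol. STAR 2.5.4, featureCounts and the build mm10 are named in the submitters' processing notes. The sources used here name neither the gene annotation nor the featureCounts version.

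Groups were taken from the labels. The main test was edgeR 4.0.16 (R 4.3.3), a robust quasi-likelihood fit with TMM scaling over all 24 libraries and 1 mean per group (16 residual degrees of freedom), on the 16263 genes kept by edgeR's filter with a minimum count of 10. P-values were adjusted over those genes by Benjamini-Hochberg and called below 0.05. The SE is approximate, the log2 fold change over the square root of F. Total counts ran from 2301202 to 7649841, and limits of 3 counts cover counting error only.

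Genes are named by this rule: in each injury comparison the 4 largest and 2 smallest changes, and any gene that did not pass where at most 6 did not. The rule adds the 5 smallest p of the F test and its failures, the gene with the highest mean CPM of each role, and up to 4 genes of each other list by smallest p. The 44 genes and all lists were chosen with earlier results of these data known. Riok2, a gene of these lists, was not analysed here.

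Promoter windows are RefSeq's (GRCm38.p6), and exon overlaps and both lengths come from a GRCm38 annotation. Alternatives were RLE scaling, no filter or a minimum count of 50, limma voom (limma 3.58.1), DESeq2 1.42.0, a fit of only the libraries compared, the replicate number as a block, and each library left out in turn. No 2 libraries of a group agreed within counting noise (chi-square over degrees of freedom 5.56 to 20.7 over 24 pairs).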

Additional observations from a re-analysis of the deposited data

Results flagged for a closer look

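The response to injury differed between populations for most of the 44 genes, by a test of the difference itself in edgeR. The F test over the 4 injury effects passed for 38 genes, where 35.9% of all genes passed. The smallest adjusted p belonged to Npm1 (7.28e-11), Nhp2 (3.72e-09), Ncl (5.27e-09), Nop56 (2.28e-08) and Tsr1 (4.68e-07). For 36 genes the effect in CD45+ cells was smaller than the mean effect of the other 3 populations (16.1% of all genes).

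MuSC had a smaller effect than MSC for 13 genes (2.11% of all genes). Against CD31+ cells, MuSC had a larger effect for 2 genes (7.32% of all genes) and a smaller one for 7 (5.02%). MSC had a larger effect than CD31+ cells for 10 genes (4.85% of all genes) and a smaller one for 2 (7.72%). These pairwise counts share libraries of the same populations and are not independent of each other.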

How the results depend on the processing

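No alternative moved the counts of the 44 genes that rose or fell after injury by over 1.5 times. Of all genes in CD31+ cells 1512 fell as reported, 2420 by DESeq2 and 1007 with no filter on low counts. Leaving out each library in turn gave 43 risen genes in CD31+ cells each time, 27 to 32 in CD45+ cells, 44 in MSC and 42 to 43 in MuSC. Differences between responses moved more, and the shares of all genes with such differences were not counted under the alternatives. Genes with a smaller effect in MuSC than MSC, 13 as reported, numbered 26 with a minimum count of 50, 29 with only the libraries compared, and 6 to 28 with a library left out. Genes with a larger effect in MuSC than CD31+ cells numbered 5 by DESeq2 and 2 to 4 with a library left out. Genes with a smaller effect in MuSC than CD31+ cells numbered 11 with only the libraries compared and 6 to 10 with a library left out. Between MSC and CD31+ cells, 6 to 13 effects were larger and 1 to 2 smaller with a library left out. In uninjured muscle the genes lower in CD45+ cells numbered 1 to 2, and those higher in MSC 0 to 1. The cause of these moves was not tested.

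In CD45+ cells the estimate for Nop10 turned to -0.01 under RLE and 0 by DESeq2, and to -0.07, -0.01, -0.05 and -0.03 without uninjured replicate 1 or 3 or injured replicate 2 or 3. With a CD45+ or other library left out, Nop10 ran from -0.07 to 0.09 and Npm1 from -0.01 (without injured CD45+ replicate 3) to 0.15. Neither gene passed under any of these. Within a population, same-numbered injured and uninjured libraries did not deviate together (r from -0.083 to 0.072 over 12 pairs, and 7 of 24 libraries correlated best with their own number). That cannot show whether they shared an animal, which the labels do not give. Same-numbered libraries of different populations were not compared in this way. With the replicate number as a replicate block, 43, 31, 44 and 43 genes rose in CD31+ cells, CD45+ cells, MSC and MuSC. No injury call changed on a gene of the 44 named by the rule. Calls of genes outside the rule were not followed one by one in the alternatives. Gar1 was low in CD45+ cells, at 5.46 to 13.5 CPM, and whether depth limited its call was not tested.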
